A study of Arabidopsis thaliana with 12 samples.

Results

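The transcripts described here are the 155 genes, of 26702 in the deposited table, that had a mean normalised read count of at least 100 in mock seedlings and a mean under cycloheximide of at most 1/12 of it. The values that chose them are those of the CHX and mock libraries, so their difference in that pair is given as a description. Among the 17993 genes at that mock level, 0.906% met both limits (163 genes), and 8 of these belong to 15 loci that were set aside, which leaves 155. All 155 matched the RefSeq annotation, which calls 152 protein coding, 1 a non-coding RNA (AT1G10682), 1 a long non-coding RNA (AT3G03265) and 1 a pseudogene (EXT11).

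The seedlings were Arabidopsis thaliana carrying the mutations clv3 epfl1 epfl2 epfl4 epfl6 in all 4 groups, and no wild type is among the samples. Each of the 4 treatments had 3 libraries, and each library came from a pool of 10 seedlings in 1 ml of liquid medium, collected 3 days after germination. The CHX plus EPFL6 group received cycloheximide at 10 µM for 10 minutes and then 8.7 µl of a 10 µM solution of the peptide EPFL6. The EPFL6 group received the peptide alone, the CHX group cycloheximide followed by buffer, and the mock group buffer alone. The time from the last addition to collection is not given in the sources used here. Comparing CHX plus EPFL6 with EPFL6 asks whether the loss seen in CHX against mock is found again in libraries that had no part in choosing the genes.

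Cycloheximide stops cytosolic ribosomes from moving along the mRNA and so blocks the making of new protein in the cytosol; ribosomes of plastids and mitochondria are not its target. Transcript levels can shift in either direction during such a block. Many proteins encoded by the set belong to the cell wall and the root surface: extensins and arabinogalactan proteins are glycoproteins of the wall, class III peroxidases join or loosen wall polymers with hydrogen peroxide, and dirigent proteins steer the coupling of lignin precursors.

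Recovered depth, in units of 1e6 reads per library, was 71.3 to 98.3 with CHX plus EPFL6, 40.2 to 59.4 with EPFL6, 85.7 to 106.6 with CHX and 47.9 to 56.8 in mock. A normalised read count is the reads of a gene divided by 1 size factor per library. The samples are labelled as shoots, yet a list of 29 root hair genes summed to 25255 to 34215 normalised reads in mock and a list of 14 leaf and photosynthesis genes to 856788 to 1856702, so transcripts of root cells were present. In such bulk samples, fewer cells of a type and less RNA per cell cannot be told apart.

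In CHX plus EPFL6 against EPFL6, called the EPFL6 pair here, all 155 transcripts fell; CHX against mock is called the mock pair. All 155 were tested and 155 were lower in CHX plus EPFL6 than in EPFL6 (limma adjusted p from 3.5e-08 to 0.00068), with 0 higher. Of all 22573 genes tested, 38.2% were lower and 39.8% higher, and of the 17993 genes with a mock mean of at least 100, 42.5% were lower. The median log2 fold change of the 155 was −4.67, with quartiles of −5.54 and −4.12 and a range from −7.29 to −2.90, against a median of 0.01 over all genes tested. The filter on low values asked for a value of 10 in 3 of the 6 libraries, which the EPFL6 libraries met alone, so that passing it said nothing about the fall.

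The 2 sets of libraries did not overlap for any of the 155 transcripts, and 43.8% of genes with a mock mean of at least 100 were likewise lower without overlap. The CHX plus EPFL6 mean was at most 1/12 of the EPFL6 mean for 143 of the 155, while 1.47% of genes with a mock mean of at least 100 met that limit. The other 12 were 7.21- to 11.4-fold lower. The median transcript was 26.4-fold lower in the EPFL6 pair (quartiles 17.7 and 46.8) and, as the rule required, 19.2-fold lower in the mock pair (15.2 and 29.5). The median level left was 3.78% of EPFL6 with CHX plus EPFL6 and 5.22% of mock with CHX. Applied to the EPFL6 pair with an EPFL6 mean of at least 100, the same limits picked 276 genes (1.53% of those at that EPFL6 level), of which 150 also met them in the mock pair, a share of 54.3% of that list and 92.0% of the 163. Scaling every library to the same total instead of by size factors moved the median of all genes tested to −0.73 and that of the 155 to −5.34, and the share of calls that were lower from 49.0% to 74.0%, with all 155 still lower. Adding 8 instead of 1 before taking logs gave the 155 a median of −4.08.

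**Figure D1:**
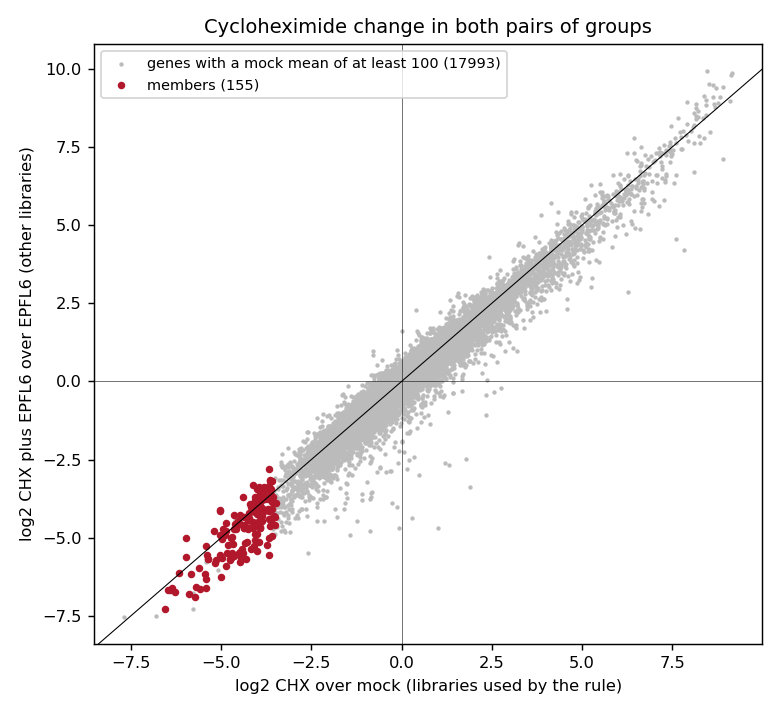
Each point is a gene, with its log2 ratio of means (pseudocount 1) for CHX over mock on the x axis and for CHX plus EPFL6 over EPFL6 on the y axis; grey points are the 17993 genes with a mock mean of at least 100 and red points the 155 members. All 155 red points lie left of the vertical zero line by choice and below the horizontal zero line by measurement.

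Together the 155 transcripts made up 0.0119% to 0.0141% of the reads in the CHX plus EPFL6 libraries, against 0.451% to 0.473% in the EPFL6 libraries. Their share was 0.0122% to 0.0176% in the CHX libraries, against 0.439% to 0.495% in mock. Shares of reads fell more than normalised values, because size factors did not rise in step with read totals under cycloheximide. Size factors ran from 0.847 to 1.14 with CHX plus EPFL6 and from 0.787 to 1.15 with EPFL6. They ran from 0.983 to 1.19 with CHX and from 0.944 to 1.08 in mock. Why the size factors did not follow the read totals was not tested. The summed normalised value was 10213 to 11890 with CHX plus EPFL6, against 232048 to 241936 with EPFL6. It was 10599 to 15780 with CHX, against 231319 to 251174 in mock. The mean of a member ran from 0.394 to 1356 normalised reads with CHX plus EPFL6 (median 17.4), from 88.1 to 24881 with EPFL6 (median 517), from 0.901 to 1614 with CHX (median 22.9) and from 104 to 25092 in mock (median 531). For each of the 155, every EPFL6 and mock library stood above every CHX and CHX plus EPFL6 library. The rule chose the members on the gap between mock and CHX, so that part describes the choice. The share of all genes with this separation over the 4 groups was not computed.

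Replicates spread more where the levels were low. The median relative SD over 3 libraries was 33.1% with CHX plus EPFL6, 13.4% with EPFL6, 34.5% with CHX and 16.8% in mock. CHX replicate 3 held the highest of the 3 CHX values for 102 of the 155 members (65.8%), against 30.8% of genes with a mock mean of at least 100. Mock replicate 2 held the lowest mock value for 94 members (60.6%), against 45.0% of those genes. Without CHX replicate 3 the rule picked 176 genes, 149 of them among the 155, and without mock replicate 2 it picked 167, 146 of them among the 155. These libraries enter the choice of the genes and not the test of CHX plus EPFL6 against EPFL6.

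**Figure D2:**
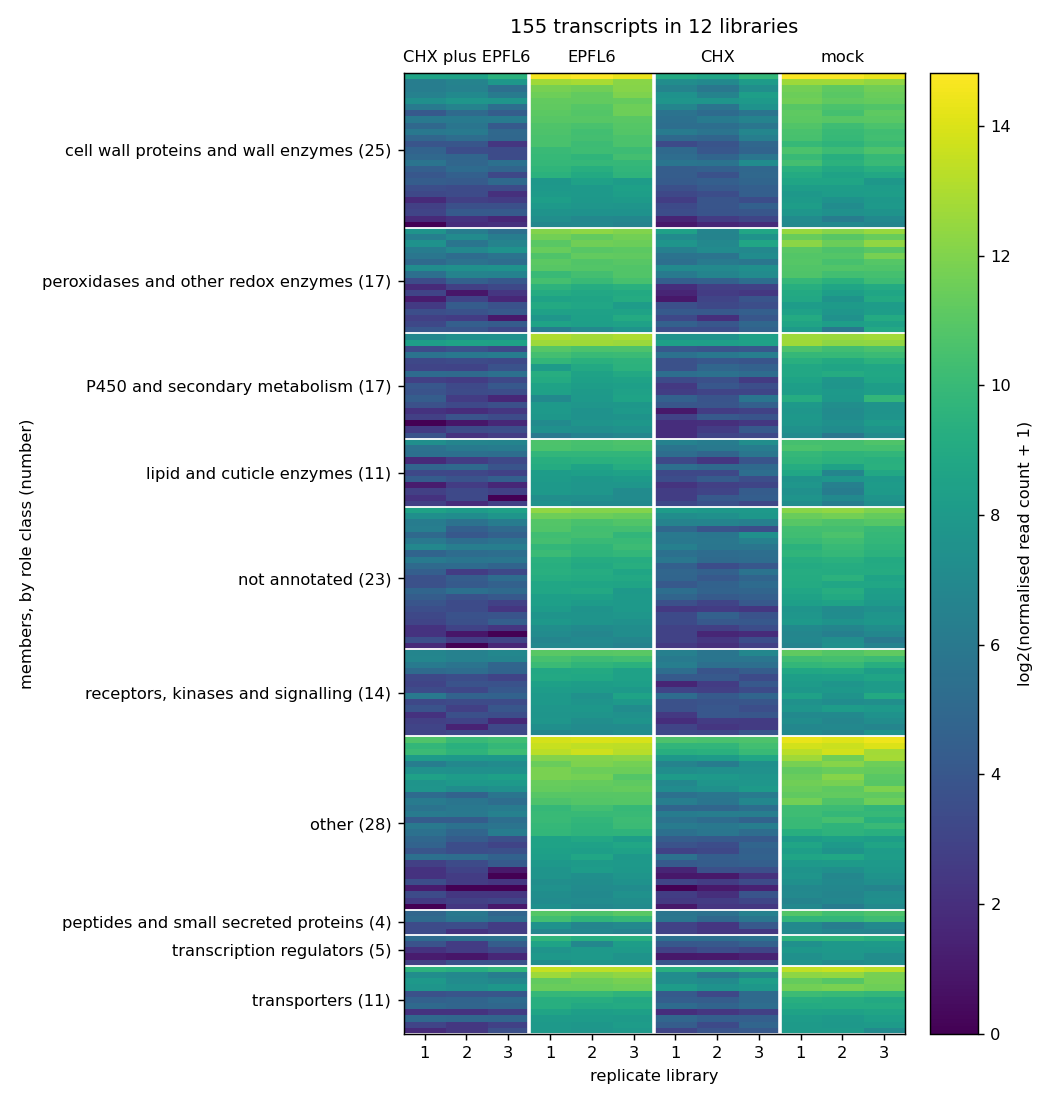
Heat map of log2(normalised read count + 1) for the 155 members (lines of the map, by role class with the number of members) in the 12 libraries (columns, 3 replicates per group). The CHX plus EPFL6 and CHX columns are darker than the EPFL6 and mock columns in every class.

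Cell wall proteins and wall enzymes made up 25 of the members, and all 25 were at most 1/12 of EPFL6 in the EPFL6 pair. Their median log2 fold change was −5.23. GRP9 (AT2G05440, chromosome 2, 1993038 to 1994177, plus strand) encodes a glycine-rich protein and had the highest level of the set, both as a count and per kilobase of exon, at 31817 normalised reads per kilobase with EPFL6. GRP9 stood at 389, 369.6 and 708 in the CHX plus EPFL6 libraries, against 24734, 28906 and 21002 in the EPFL6 libraries. It stood at 513, 415 and 901 in the CHX libraries, against 26927, 26842 and 21507 in mock. GRP9 was 50.9-fold lower in the EPFL6 pair (log2 fold change −5.72 ± 0.26 (SE), limma adjusted p = 1.9e-06), and its lowest EPFL6 library was far above its highest CHX plus EPFL6 library.

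A second glycine-rich gene, AT2G05510, lies a few genes from GRP9 on chromosome 2 and averaged 134 ± 79.1 with CHX plus EPFL6 and 6285 ± 1495 with EPFL6 (SD, n = 3 each; log2 fold change −5.66 ± 0.39 (limma adjusted p = 1.4e-05)). EXT13 (AT5G35190) encodes an extensin, a hydroxyproline-rich wall glycoprotein. EXT13 had 75.6, 90.9 and 41.6 in the CHX plus EPFL6 libraries, against 3572, 3061 and 4501 in the EPFL6 libraries. EXT13 had 99.4, 57.0 and 158 in the CHX libraries, against 3298, 2278 and 3067 in mock. The fold in the EPFL6 pair was 53.5 (log2 fold change −5.78 ± 0.29 (SE), limma adjusted p = 3.3e-06), and no library of 1 treatment reached the range of the other. EXT6 averaged 96.6 ± 29.9 with CHX plus EPFL6 and 3126 ± 763 with EPFL6 (SD, n = 3 each), but it shares 91.5% of 1065 coding bases with AT5G06630, so reads of this pair may have been split between them. EXT11, called a pseudogene by RefSeq, had a log2 ratio of −6.63 ± 0.29 (limma adjusted p = 1.6e-06).

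AT5G04960, a pectin methylesterase inhibitor family gene, was among the members lowered most. AT5G04960 had 14.2, 14.9 and 4.16 in the CHX plus EPFL6 libraries, against 1514, 1157 and 1603 in the EPFL6 libraries. It was 129-fold lower (log2 fold change −7.04 ± 0.44 (SE), limma adjusted p = 7.7e-06). Changes of other wall members were smaller. AGP3, an arabinogalactan protein, had a log2 fold change of −5.50, the pectin methylesterase RHS12 −4.73, the xyloglucan endotransglucosylase XTH12 −5.42, the expansin EXPA17 −4.51 and the xyloglucan fucosyltransferase family member FUT5 −5.18. Among gene families, 5 of the 155 (3.23%) were named extensin-like by RefSeq, against 0.0891% of genes with a mock mean of at least 100, or 0.212% if every product name that holds the word extensin is counted. The 15 other extensin-like genes tested had a median of −0.98, with 10 lower and 3 higher.

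Of 29 genes on a root hair list, 7 were members (MRH6, RHS12, RHS13, RHS19, AGP3, EXT12 and XTH12). A further 6 were among the loci set aside, and of the 16 others tested 10 were lower and 3 higher with a median of −2.03. The list, members included, summed to 12825 to 16105 normalised reads with CHX plus EPFL6, 30701 to 40463 with EPFL6, 20398 to 25101 with CHX and 25255 to 34215 in mock. Under CHX most of the sum came from CSLD3, RHD4 and LRX2, with means of 7375, 6221 and 4280, against 3672, 4256 and 1041 in mock. The sum therefore does not describe the typical gene of the list. The part of root hair cell number in these results was not tested. Root hair genes often carry a short promoter motif known as the root hair element. A loose form of its core lies within 250 bases upstream of the annotated gene start in 4 of the 7. This form fixes no base between TG and CACG, so a match need not be the element. Those 4 windows are shown because they hold the loose form, and they were not compared for other shared sequence. Capitals mark TG, then 4 or 5 bases of any kind, then CACG, on either strand, and each window is written 5′ to 3′ along the gene. Sequences and coordinates are from RefSeq, build TAIR10.1: MRH6 chr2:1131870-1132119 (plus strand), RHS13 chr4:993040-993289 (minus strand), EXT12 chr4:7783541-7783790 (plus strand) and RHS19 chr5:26894528-26894777 (plus strand).
MRH6: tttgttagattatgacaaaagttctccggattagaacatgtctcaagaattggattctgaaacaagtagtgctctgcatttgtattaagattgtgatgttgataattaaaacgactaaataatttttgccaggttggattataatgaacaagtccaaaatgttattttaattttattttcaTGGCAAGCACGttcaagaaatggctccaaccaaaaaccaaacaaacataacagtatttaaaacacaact
RHS13: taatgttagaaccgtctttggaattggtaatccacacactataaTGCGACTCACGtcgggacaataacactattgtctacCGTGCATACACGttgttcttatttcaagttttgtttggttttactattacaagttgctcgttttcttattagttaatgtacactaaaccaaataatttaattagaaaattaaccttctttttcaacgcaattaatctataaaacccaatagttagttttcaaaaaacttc
EXT12: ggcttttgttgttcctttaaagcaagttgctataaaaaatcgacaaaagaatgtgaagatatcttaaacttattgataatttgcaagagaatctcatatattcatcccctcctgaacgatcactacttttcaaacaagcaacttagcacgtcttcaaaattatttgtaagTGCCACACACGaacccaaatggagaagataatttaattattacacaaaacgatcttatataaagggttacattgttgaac
RHS19: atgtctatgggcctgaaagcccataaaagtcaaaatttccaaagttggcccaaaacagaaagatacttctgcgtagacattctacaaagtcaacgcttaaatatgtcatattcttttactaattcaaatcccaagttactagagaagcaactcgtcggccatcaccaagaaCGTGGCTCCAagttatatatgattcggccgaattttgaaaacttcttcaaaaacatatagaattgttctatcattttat
The RHS13 window holds 3 matches, 2 of which overlap. Over all 155 members, 25 windows (16.1%) held this loose form, against 9.10% of 17960 genes with a mock mean of at least 100. The AC element (ACCTACC or ACCAACC, both strands), known from phenylpropanoid genes, was in 11 member windows (7.10%) and 3.93% of all. TATAAA on the gene strand was in 60 (38.7%) and 31.0% of all, the G-box CACGTG in 7 (4.52%) and 7.29%, and the W-box TTGACC or TTGACT on either strand in 34 (21.9%) and 28.1%. The G-box can lie within longer CACG matches, so these counts are not independent. A match describes letters in these windows and no more.

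RHS13 is annotated as a root hair specific gene. RHS13 had 30.7, 53.3 and 17.7 in the CHX plus EPFL6 libraries, against 1739, 1525 and 1893 in the EPFL6 libraries. RHS13 had 39.6, 39.7 and 55.6 in the CHX libraries, against 1748, 1168 and 1577 in mock. It was 50.7-fold lower in the EPFL6 pair (log2 fold change −5.75 ± 0.36 (SE), limma adjusted p = 8e-06), with every CHX plus EPFL6 library far below every EPFL6 library. EXT12 had 65.0, 97.0 and 39.5 in the CHX plus EPFL6 libraries, against 2309.9, 1913 and 3013 in the EPFL6 libraries, and its log2 ratio was −5.21 ± 0.33 (limma adjusted p = 8.8e-06). MRH6, annotated as an adenine nucleotide alpha hydrolase-like protein, had 14.2, 10.5 and 11.4 in the CHX plus EPFL6 libraries, against 346, 316 and 350.2 in the EPFL6 libraries, and its log2 ratio was −4.71 ± 0.16 (limma adjusted p = 5.3e-07).

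Peroxidases and other redox enzymes numbered 17, with a median log2 fold change of −5.13, and 15 of them were at most 1/12 of EPFL6. Class III peroxidases made up 10 of the 155 members (6.45%), against 0.317% of genes with a mock mean of at least 100. The 56 other class III peroxidase genes tested split into 28 lower and 17 higher, with a median of −0.36. RHS19 (AT5G67400) is a root hair specific peroxidase. RHS19 had 83.9, 141 and 75.9 in the CHX plus EPFL6 libraries, against 3202, 2494 and 3246 in the EPFL6 libraries. RHS19 had 142, 98.7 and 194 in the CHX libraries, against 2682, 1979.8 and 2638 in mock. It was 29.8-fold lower (log2 fold change −4.93 ± 0.24 (SE), limma adjusted p = 2.5e-06), and every CHX plus EPFL6 library stayed below every EPFL6 library.

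AT1G44970, another peroxidase gene, had 11 reads over the CHX plus EPFL6 group and 1488 over EPFL6. AT1G44970 had 7.09, 0.874 and 4.16 in the CHX plus EPFL6 libraries, against 564, 467 and 521 in the EPFL6 libraries. AT1G44970 had 1.84, 5.09 and 4.21 in the CHX libraries, against 506, 320.1 and 418 in mock. Its log2 fold change was −6.92 ± 0.51 (limma adjusted p = 1.7e-05), and −6.32 without CHX plus EPFL6 replicate 2. AT1G49570 averaged 113 ± 69.3 with CHX plus EPFL6 and 2732 ± 549 with EPFL6, and AT2G18980 126 ± 56.2 with CHX plus EPFL6 and 2289.8 ± 299 with EPFL6 (SD, n = 3 each; log2 fold changes −4.75 ± 0.43 (limma adjusted p = 5.3e-05) and −4.27 ± 0.31 (limma adjusted p = 1.8e-05)).

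MSRB5, a methionine sulfoxide reductase that repairs oxidised methionine, spread widely under CHX plus EPFL6. MSRB5 had 206, 77.8 and 41.6 in the CHX plus EPFL6 libraries, against 4245, 4953 and 4187 in the EPFL6 libraries. MSRB5 had 354, 104 and 435 in the CHX libraries, against 5871, 4474 and 5903 in mock. Its log2 fold change was −5.65 ± 0.52 (limma adjusted p = 5.6e-05), and −6.26 without CHX plus EPFL6 replicate 1, which was the highest of the 3. UCC1, a blue copper protein on the endodermis list, had 2.36, 6.12 and 8.32 in the CHX plus EPFL6 libraries, against 768, 575 and 691 in the EPFL6 libraries, and the laccase LAC3, a copper oxidase, had a log2 fold change of −5.65. The endodermis list held 1 member, 8 of the loci set aside and 1 other gene tested, the oxidase gene RBOHF, which was higher. AT3G59710 had 15.4, 14.0 and 8.32 in the CHX plus EPFL6 libraries, against 72.5, 122 and 206 in the EPFL6 libraries. It had the smallest change of the class (log2 fold change −3.23 ± 0.41 (SE), limma adjusted p = 0.0003), and its EPFL6 libraries spread widely.

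**Figure D3:**
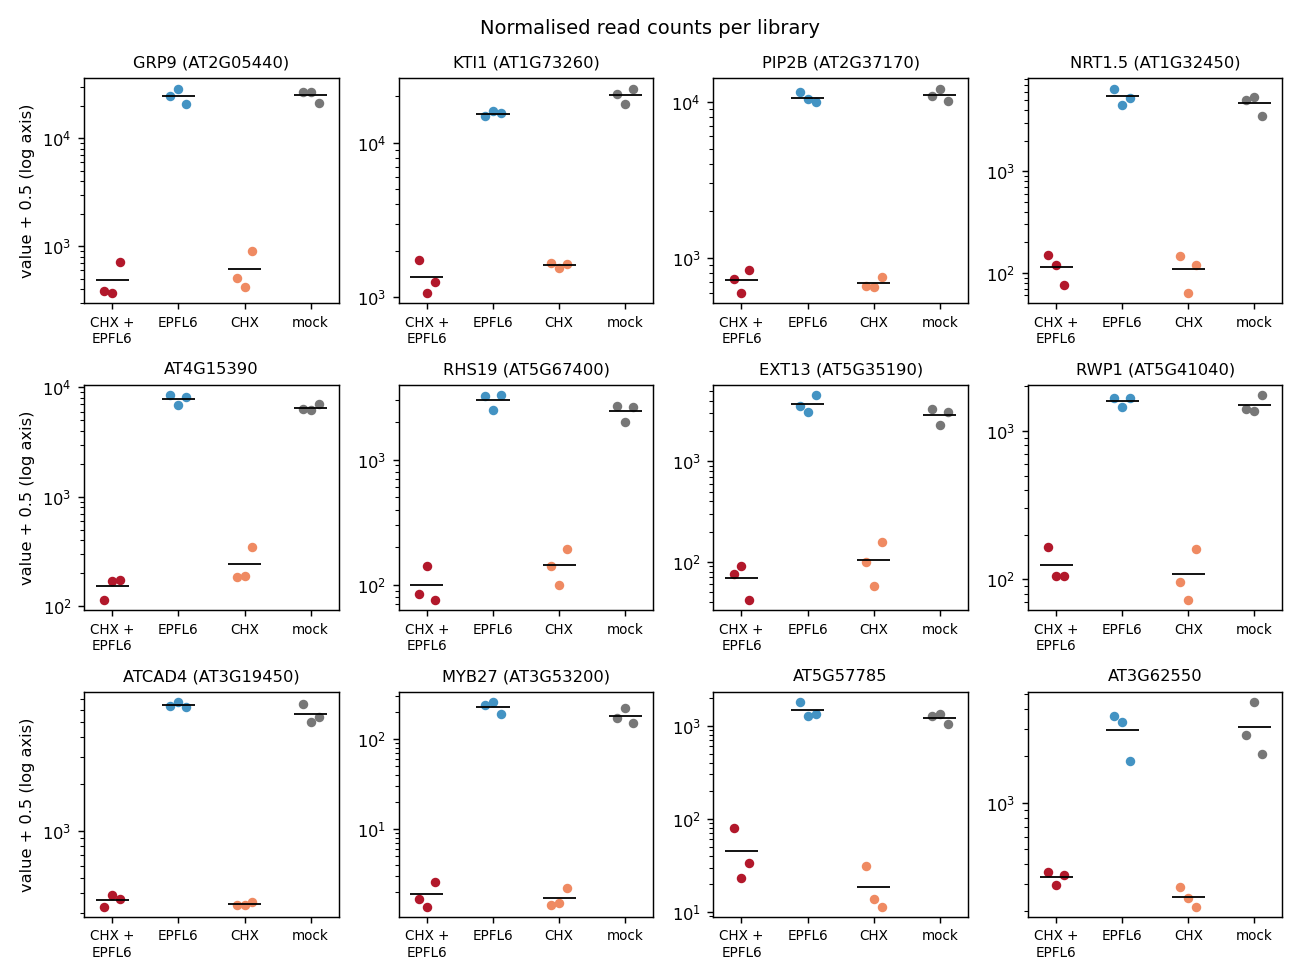
Normalised read counts + 0.5 on a log axis for 12 members, 1 panel each, with a point per library and a bar at the mean of 3 for CHX plus EPFL6, EPFL6, CHX and mock. In every panel the points of CHX plus EPFL6 lie below those of EPFL6 and the points of CHX below those of mock.

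Enzymes of secondary metabolism numbered 17, all at most 1/12 of EPFL6, with a median log2 fold change of −4.78. Dirigent-like genes gave 5 of them, out of 15 such genes with a mock mean of at least 100. The 14 other dirigent-like genes tested had 8 lower and 4 higher, with a median of −1.57. AT3G55230, a dirigent-like gene on chromosome 3, 20471787 to 20472946, plus strand, had the most negative fold change of the set on the log2(value + 1) scale. By ratio of means, AT1G08670 and CYP71A19, which had few reads left under CHX plus EPFL6, were lower still. AT3G55230 had 9.45, 12.2 and 8.32 in the CHX plus EPFL6 libraries, against 1927, 1544 and 1639.8 in the EPFL6 libraries. AT3G55230 had 15.6, 13.2 and 15.2 in the CHX libraries, against 1653, 1214 and 1534 in mock. It was 170.4-fold lower in the EPFL6 pair (log2 fold change −7.29 ± 0.17 (SE), limma adjusted p = 1e-07), and the lowest EPFL6 library was far above every CHX plus EPFL6 library.

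ATCAD4 (AT3G19450) encodes a cinnamyl alcohol dehydrogenase of the last step of monolignol synthesis. ATCAD4 had 328, 388 and 367 in the CHX plus EPFL6 libraries, against 6335, 6683 and 6195 in the EPFL6 libraries. ATCAD4 had 337, 334 and 352 in the CHX libraries, against 6553, 4999 and 5358 in mock. Its fold was 17.7 (log2 fold change −4.15 ± 0.08 (SE), limma adjusted p = 4.5e-08), and its replicates were close in the EPFL6 group. PAL4, a phenylalanine ammonia-lyase at the entry to the pathway, averaged 37.1 ± 4.92 with CHX plus EPFL6 and 490.0 ± 109 with EPFL6 (SD, n = 3 each; log2 fold change −3.67 ± 0.20 (limma adjusted p = 3.4e-06)). On a list of 12 lignin and phenylpropanoid genes in the file, ATCAD4 and PAL4 were the 2 members. The 10 others were all tested and all 10 were lower, with a median of −1.96. That this is smaller than the change of either member follows in part from the rule. UGT72E3, a glucosyltransferase that acts on monolignols, averaged 10.7 ± 1.68 with CHX plus EPFL6 and 235 ± 19.3 with EPFL6 (SD, n = 3 each; log2 fold change −4.35 ± 0.18 (limma adjusted p = 1.1e-06)).

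AT4G15390, an acyltransferase family gene, sits between the cytochrome P450 genes CYP705A4 and CYP702A5 on chromosome 4, and all 3 are members. AT4G15390 had 113, 168 and 172 in the CHX plus EPFL6 libraries, against 8443, 6835 and 8153 in the EPFL6 libraries. AT4G15390 had 185, 189 and 349 in the CHX libraries, against 6364, 6158 and 7037 in mock. It was 51.8-fold lower (log2 fold change −5.70 ± 0.17 (SE), limma adjusted p = 3.3e-07), without overlap in the EPFL6 pair. CYP702A5 averaged 61.2 ± 12.1 with CHX plus EPFL6 and 1174 ± 155 with EPFL6 (SD, n = 3 each; log2 fold change −4.25 ± 0.17 (limma adjusted p = 9.1e-07)), and CYP705A4 had a log2 fold change of −4.26. Cytochrome P450 genes, a large family of oxidising enzymes, gave 6 members (3.87%), against 0.796% of genes with a mock mean of at least 100. Of the 191 other P450 genes tested, 78 were lower and 80 higher. CYP71A19 was left with 3 reads over the CHX plus EPFL6 group, against 557 over EPFL6, a fold of 190.1 with a 95% counting interval of 65.0 to 921.6, which covers counting error only.

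Lipid and cuticle enzymes numbered 11, all at most 1/12 of EPFL6, with a median of −4.66. RWP1 (AT5G41040, also called ASFT) transfers ferulate to the fatty alcohols of suberin, the waxy barrier of roots. RWP1 had 164, 105 and 104 in the CHX plus EPFL6 libraries, against 1663, 1449 and 1653 in the EPFL6 libraries. RWP1 had 94.8, 72.2 and 159 in the CHX libraries, against 1397, 1371 and 1733 in mock. Its fold was 12.8 (log2 fold change −3.70 ± 0.19 (SE), limma adjusted p = 2.7e-06), the smallest of the class. EDA4, annotated as a lipid-transfer-like protein, had 2.36, 5.24 and 8.32 in the CHX plus EPFL6 libraries, against 637, 666 and 718 in the EPFL6 libraries. It was 127-fold lower (log2 fold change −6.86 ± 0.36 (SE), limma adjusted p = 3.2e-06), and its neighbour AT2G48130, of the same family and on the other strand, was 20.6-fold lower (log2 fold change −4.33 ± 0.10 (SE), limma adjusted p = 8.6e-08). The GDSL lipase gene AT2G23540 averaged 62.7 ± 13.6 with CHX plus EPFL6 and 1507 ± 91.5 with EPFL6 (SD, n = 3 each; log2 fold change −4.59 ± 0.17 (limma adjusted p = 6.5e-07)). CER4, which makes the primary alcohols of wax, had a log2 fold change of −6.05. Suberin genes as a list ran in both directions. Besides RWP1 and the transporter gene ABCG6, 15 were tested, of which 7 were lower and 5 higher, with a median of 0.27.

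Transporters numbered 11, of which 10 were at most 1/12 of EPFL6, with a median of −4.29. PIP2B (AT2G37170) encodes the plasma membrane water channel PIP2;2. PIP2B had 728, 597 and 834 in the CHX plus EPFL6 libraries, against 11569.9, 10364 and 9896 in the EPFL6 libraries. PIP2B had 656, 654 and 749.5 in the CHX libraries, against 10821, 12098 and 10089 in mock. It was 14.7-fold lower (log2 fold change −3.89 ± 0.13 (SE), limma adjusted p = 4.3e-07), and replicates were close within each treatment. Its near copy PIP2;3 shares 94.9% of 856 coding bases with it, so the split of reads between them is uncertain. TIP2;3, a water channel of the vacuole membrane, had a log2 ratio of −5.30 ± 0.46 (limma adjusted p = 3.6e-05). All 17 other aquaporin genes tested were lower as well, with a median of −1.75, and none was higher.

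NRT1.5 (AT1G32450) loads nitrate into the root xylem. NRT1.5 had 151, 118 and 75.9 in the CHX plus EPFL6 libraries, against 6500.1, 4514 and 5318 in the EPFL6 libraries. NRT1.5 had 147, 63.1 and 118 in the CHX libraries, against 5048, 5374 and 3509 in mock. It was 47.3-fold lower (log2 fold change −5.59 ± 0.26 (SE), limma adjusted p = 2.1e-06), a larger change than that of the aquaporin PIP2B. SIAR1, an amino acid transporter, averaged 167 ± 71.3 with CHX plus EPFL6 and 2961 ± 489 with EPFL6 and the major facilitator family gene AT2G26690 205 ± 28.7 with CHX plus EPFL6 and 2794 ± 187 with EPFL6 (SD, n = 3 each; log2 fold changes −4.21 ± 0.29 (limma adjusted p = 1.4e-05) and −3.77 ± 0.11 (limma adjusted p = 3e-07)). HKT1, which takes sodium out of the xylem sap, had 11.8, 14.0 and 14.6 in the CHX plus EPFL6 libraries, against 934, 992 and 793 in the EPFL6 libraries, and its log2 ratio was −5.97 ± 0.15 (limma adjusted p = 1.3e-07). AT1G16310, a cation efflux family gene, had 30.7, 28.8 and 28.1 in the CHX plus EPFL6 libraries, against 278, 282 and 269.9 in the EPFL6 libraries, one of the smaller changes (log2 fold change −3.20 ± 0.12 (SE), limma adjusted p = 7.5e-07). On a nutrient uptake list, bHLH38 was the 1 member, and of 20 others tested 9 were lower and 5 higher.

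Receptors, kinases and signalling proteins numbered 14, with a median of −4.40. Protein kinases made up 3.23% of the 155 members and 3.35% of genes with a mock mean of at least 100, and of the 729 other kinase genes tested 200 were lower and 436 higher. AT4G06744, annotated as a leucine-rich repeat protein, had 107, 90.9 and 117 in the CHX plus EPFL6 libraries, against 2079.8, 2016 and 2081 in the EPFL6 libraries, and its log2 ratio was −4.28 ± 0.11 (limma adjusted p = 1.3e-07). Its EPFL6 replicates were the closest of the class. AT3G63210, annotated as a mediator of dormancy, averaged 99.5 ± 9.84 with CHX plus EPFL6 and 1292 ± 145 with EPFL6 (SD, n = 3 each; log2 fold change −3.68 ± 0.12 (limma adjusted p = 3.9e-07)). AT4G38860, 1 of 3 auxin-responsive SAUR-like members, averaged 48.7 ± 20.8 with CHX plus EPFL6 and 884 ± 209 with EPFL6 (SD, n = 3 each; log2 fold change −4.22 ± 0.34 (limma adjusted p = 2.9e-05)). AT5G47610, a RING/U-box gene, averaged 32.9 ± 6.34 with CHX plus EPFL6 and 438 ± 79.5 with EPFL6 (SD, n = 3 each; log2 fold change −3.70 ± 0.20 (limma adjusted p = 4e-06)).

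AT1G29195, annotated as related to a phosphatidylinositol phosphate kinase, changed least of all 155. AT1G29195 had 63.8, 25.3 and 23.9 in the CHX plus EPFL6 libraries, against 247, 183 and 385 in the EPFL6 libraries. AT1G29195 had 36.8, 17.3 and 26.9 in the CHX libraries, against 349.5, 195 and 518 in mock. It was 7.21-fold lower in the EPFL6 pair (log2 fold change −2.90 ± 0.43 (SE), limma adjusted p = 0.00068) and 13.1-fold in the mock pair, and its replicates varied widely in each group.

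Transcription regulators numbered 5, with a median of −4.29. MYB27 (AT3G53200), an R2R3-MYB factor, was left with 4 reads over the CHX plus EPFL6 group, against 674 over EPFL6. MYB27 had 1.18, 0.874 and 2.08 in the CHX plus EPFL6 libraries, against 243, 258 and 192 in the EPFL6 libraries. MYB27 had 0.920, 1.02 and 1.68 in the CHX libraries, against 171, 223 and 151 in mock. It was 167-fold lower (log2 fold change −6.63 ± 0.27 (SE), limma adjusted p = 9.6e-07). Its 150.2-fold difference in the mock pair, which the rule used, was the largest there by ratio of means. That ratio rests on the very low CHX values given above, so its rank is uncertain. HB52, a homeodomain-leucine zipper factor, had 3.54, 5.24 and 8.32 in the CHX plus EPFL6 libraries, against 206, 261 and 264 in the EPFL6 libraries, and its log2 ratio was −5.24 ± 0.29 (limma adjusted p = 4.2e-06). ZFP6, a zinc finger protein, averaged 41.7 ± 5.76 with CHX plus EPFL6 and 688 ± 129.8 with EPFL6 (SD, n = 3 each; log2 fold change −4.01 ± 0.17 (limma adjusted p = 1.3e-06)). bHLH38, a regulator of the response to iron shortage, had 13.0, 5.24 and 19.8 in the CHX plus EPFL6 libraries, against 381, 115 and 307 in the EPFL6 libraries, and its EPFL6 libraries spread over a wide range (log2 fold change −4.29 ± 0.59 (SE), limma adjusted p = 0.00043).

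Peptide and small secreted protein genes numbered 4, all at most 1/12 of EPFL6. GASA5 encodes a cysteine-rich peptide of a gibberellin-regulated family and averaged 41.7 ± 10.2 with CHX plus EPFL6 and 1028 ± 234 with EPFL6 (SD, n = 3 each; log2 fold change −4.59 ± 0.22 (limma adjusted p = 2.3e-06)). CLE2, a peptide of the family of CLAVATA3, had 9.45, 3.49 and 5.20 in the CHX plus EPFL6 libraries, against 111, 111 and 93.7 in the EPFL6 libraries, and its log2 ratio was −4.00 ± 0.33 (limma adjusted p = 2.9e-05). The secreted CAP domain genes AT5G57625 and AT4G31470 had log2 fold changes of −5.69 ± 0.30 (limma adjusted p = 3.3e-06) and −3.91 ± 0.32 (limma adjusted p = 2.9e-05). The libraries of these 4 genes did not overlap in the EPFL6 pair, as for all 155 members. Of genes with a mock mean of at least 100, 43.8% were likewise lower without overlap.

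The class of other functions held 28 members, 23 of them at most 1/12 of EPFL6, with a median of −4.32. KTI1, a Kunitz trypsin inhibitor, was second to GRP9 per kilobase, at 12979.8 normalised reads per kilobase with EPFL6. KTI1 had 1739.8, 1069 and 1260.0 in the CHX plus EPFL6 libraries, against 14767, 15896 and 15479.6 in the EPFL6 libraries. KTI1 had 1664, 1538 and 1641 in the CHX libraries, against 20718, 17850.1 and 22269 in mock. It was 11.3-fold lower (log2 fold change −3.53 ± 0.17 (SE), limma adjusted p = 2.2e-06), which left the highest level per kilobase of any member under CHX plus EPFL6, 1144 normalised reads per kilobase. OSM34, an osmotin-type defence protein, averaged 837 ± 147 with CHX plus EPFL6 and 11239 ± 902 with EPFL6 (SD, n = 3 each; log2 fold change −3.76 ± 0.14 (limma adjusted p = 6.7e-07)). The lipid-binding family gene AT4G23670 averaged 1026 ± 196 with CHX plus EPFL6 and 11006 ± 2109 with EPFL6, and the TRAF-like gene AT3G20370 255 ± 17.6 with CHX plus EPFL6 and 4411 ± 298 with EPFL6 (SD, n = 3 each; log2 fold changes −3.42 ± 0.18 (limma adjusted p = 3.7e-06) and −4.11 ± 0.08 (limma adjusted p = 5.1e-08)).

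AT3G62550, an adenine nucleotide alpha hydrolase-like gene, kept 11.2% of its EPFL6 level. AT3G62550 had 356, 292 and 341 in the CHX plus EPFL6 libraries, against 3617, 3321 and 1858 in the EPFL6 libraries. AT3G62550 had 285, 243 and 213 in the CHX libraries, against 2755, 4452 and 2064 in mock. It was 8.90-fold lower (log2 fold change −3.10 ± 0.25 (SE), limma adjusted p = 2.8e-05), with CHX plus EPFL6 replicates closer to each other than those of EPFL6. LEA3, a late embryogenesis abundant protein, had 42.5, 38.4 and 23.9 in the CHX plus EPFL6 libraries, against 311, 427 and 242 in the EPFL6 libraries, and its log2 ratio was −3.19 ± 0.29 (limma adjusted p = 4.4e-05). At the other end, AT1G08670, an ENTH/VHS family gene, had 1 read over the CHX plus EPFL6 group, against 442 over EPFL6, and a fold of 392 with a 95% counting interval of 70.3 to 15480. It had 3 reads over the CHX group, against 337 over mock, a fold of 125 with an interval of 42.7 to 604.6. In 8 members at least 1 CHX or CHX plus EPFL6 library had 0 reads.

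For 23 members the annotation gives no clear role, and 20 of these were at most 1/12 of EPFL6, with a median of −4.54. AT3G22970 averaged 335 ± 40.4 with CHX plus EPFL6 and 4643 ± 602 with EPFL6, the non-coding RNA AT1G10682 175 ± 30.5 with CHX plus EPFL6 and 2811 ± 247 with EPFL6 and AT5G10580 64.4 ± 14.9 with CHX plus EPFL6 and 1716 ± 174 with EPFL6 (SD, n = 3 each; log2 fold changes −3.79 ± 0.12 (limma adjusted p = 4.2e-07), −4.01 ± 0.14 (limma adjusted p = 4.6e-07) and −4.74 ± 0.19 (limma adjusted p = 9.2e-07)). AT5G57785 had 79.1, 22.7 and 33.3 in the CHX plus EPFL6 libraries, against 1781, 1283 and 1347 in the EPFL6 libraries. AT5G57785 had 30.4, 13.2 and 10.9 in the CHX libraries, against 1282, 1323 and 1034 in mock. Its log2 fold change was −5.18 ± 0.43 (limma adjusted p = 3.2e-05). The long non-coding RNA AT3G03265 lies antisense to the aquaporin gene TIP2;1, and since the strand setting of the counting is not given, reads of the 2 genes cannot be told apart.

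**Figure D4:**
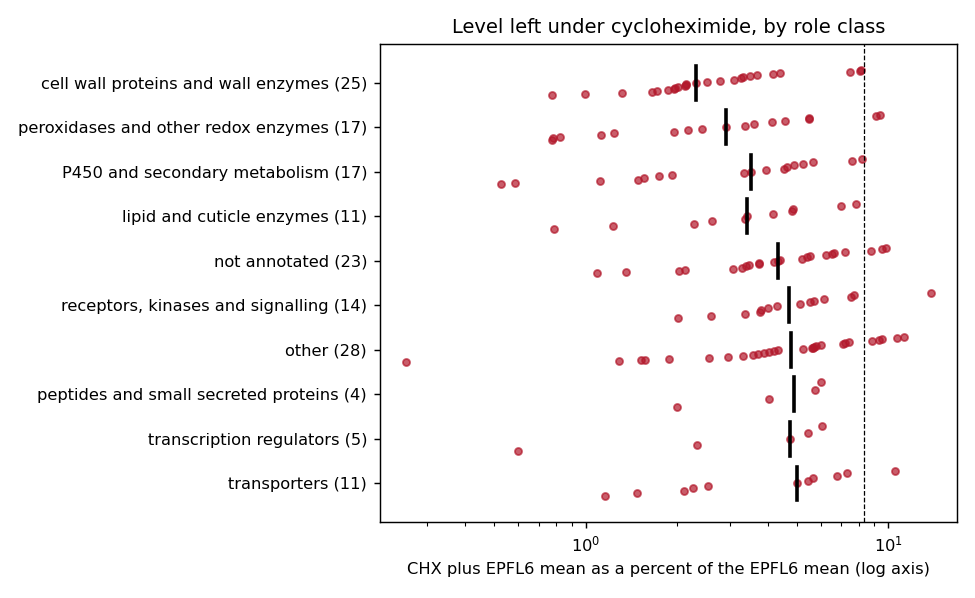
Each point is a member, placed by its CHX plus EPFL6 mean as a percent of its EPFL6 mean (log axis) and grouped by role class with the number of members; bars are class medians and the dashed line is 1/12. Points right of the line are the 12 members above 1/12, and class medians lie between 2.31% (cell wall) and 4.99% (transporters).

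Several properties that the rule did not use set the members beside other genes of the same minimum level. Their transcripts were shorter, with a median exonic length of 1238 bases against 1828, and the median number of exons was 2 against 5. Genes with a single exon made up 29.7% of members (46 genes) and 11.9% of all genes at that level. The median protein length was 254 residues against 399, and GC content was close, 40.7% against 41.2%. Genes whose RefSeq expression note holds the words plant structures were left out of the next counts. Among the rest, RefSeq names tissues of expression for 45 members, with root among them for 43 (95.6%). Root is named for 500 of the 1190 such genes with a mock mean of at least 100 (42.0%). RefSeq names only root, root hair or hypocotyl for 21 of the 45 (46.7%), against 17.0%. These shares do not cover all members or all genes at that level. Lists of root cap, root meristem and stele, xylem, phloem, flavonoid, shoot epidermis, photosynthesis and shoot meristem genes held 0 members. Each had only 4 to 18 genes in the file, and 0.906% of genes with a mock mean of at least 100 met both limits. Some genes of these lists also fell in the EPFL6 pair, in shares that differed between lists. The root meristem and stele list had 8 of 16 lower and 7 higher (median −0.14). The xylem list had 6 of 16 lower and 2 higher (median −0.14), and the root cap list 1 of 4 lower and 1 higher. The flavonoid list had 5 of 9 lower and 1 higher (median −1.09), and the photosynthesis list 4 of 14 lower and 0 higher (median −0.51). The shoot meristem list had 6 of 10 lower and 1 higher (median −1.91). The shoot epidermis list had 11 of 14 lower and 3 higher (median −1.34), and the phloem list 1 of 10 lower and 4 higher.

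Members lay on all 5 chromosomes, 35, 23, 25, 35 and 37 on chromosomes 1 to 5. Of the 155, 19 sat in 9 groups within 3 genes of each other. Besides the pairs named above these were MLP328 with MLP329, AT3G55230 with AT3G55240, the extensin-like AT4G08400 with AT4G08410, CYP71A19 with CYP71A20, PELPK2 with PELPK1, and P1R1 with AT5G57785. Of 152 members with a coding sequence, 13 had a near copy (at least 90% identity over at least 50% of the coding length), for example the peroxidase AT1G05240, which is identical to AT1G05250, and reads of such pairs are uncertain. MLP328, CYP702A5, EXT6 and PIP2B are among these 13. In all, 20 members overlap another gene of the table, and for NRT1.5, AT2G26690, bHLH38, CYP71A19, RWP1 and RHS19 that gene lies on the other strand, so their reads are uncertain to that extent.

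With and without the peptide, most members had overlapping libraries. The mock and CHX libraries that serve here as the comparison also chose the members, so both effects are given side by side without a test. Without CHX, 8 members lay above mock in all EPFL6 libraries without overlap (3.27% of genes with a mock mean of at least 100 did so), 3 lay below (2.73%) and 144 overlapped. The median log2 ratio of EPFL6 to mock was 0.07 over the 155 (range −1.15 to 0.57), and 0.00 over all those genes. Under CHX, 5 lay above (21.9% of those genes) and 14 below (16.1%), and 136 overlapped. The median log2 ratio of CHX plus EPFL6 to CHX was −0.26 (range −2.00 to 1.263), and 0.03 over all those genes, but without CHX replicate 3 it was −0.03. The fold in the EPFL6 pair exceeded that in the mock pair for 108 of the 155, and for 88 without CHX replicate 3.

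The 3 members below mock with EPFL6 were GLYI4, KTI1 and OSM34. GLYI4, a glyoxalase family gene, had 2034, 2010.4 and 1995 with EPFL6, against 2393, 2408 and 2383 in mock. The 8 above mock included MRH6, AT5G04960, the kinase genes AT1G51870, AT2G41970, AT5G03640 and AT4G20450, AT3G62040 and AT1G08670. The 5 above CHX were MLP328, AT2G21100, AT3G62550, AT3G63210 and P1R1. MLP328, a major latex-like protein, had 49.6, 60.3 and 70.7 with CHX plus EPFL6, against 27.6, 28.5 and 39.6 with CHX. The 14 below CHX included AT3G55230, CYP71A19, AT4G15390, AT5G10580, UGT72E3, EXT11 and AT4G20450. No member lay on the same side without overlap in both comparisons.

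**Figure D5:**
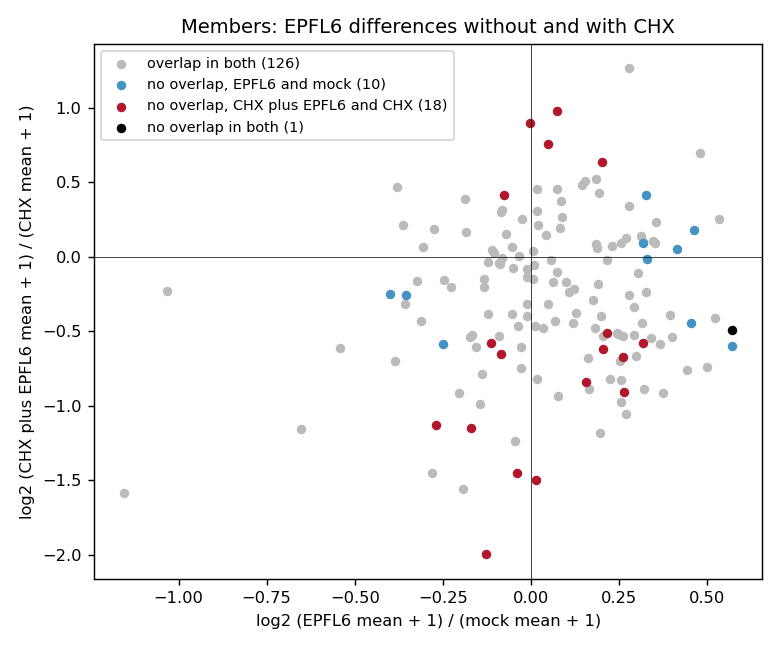
Log2 ratio of EPFL6 to mock (x axis) against log2 ratio of CHX plus EPFL6 to CHX (y axis) for the 155 members, from means + 1; colours mark members whose libraries do not overlap in 1 or both comparisons. Most points (126) overlap in both, and 1 point, AT4G20450, does not overlap in either.

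The limit of 1/12 fell within a continuous range of values. Just inside it, UGT72E3 had means of 17.0 with CHX and 203.8 in mock, PAL4 of 40.8 and 494, and bHLH38 of 18.5 and 226. Just outside it, the glycine-rich gene AT4G30460 had 166 with CHX and 1995 in mock, APT2 had 132 and 1574, and AT2G22930 had 17.2 and 205.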

How the data were processed

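Poly(A)-selected RNA was sequenced from 4 groups of 3 libraries. The submitters' processing notes name DESeq2 (version 1.26.0), featureCounts (version 2.0.0), STAR (version 2.7.6a) and the build TAIR10; the counting mode and strand setting are not given in the sources used here. The deposited values are the authors' scaled signal, in which each library's reads had been divided by its own size factor: multiplied back, 100% of values lay within 1e-06 of a whole number. The groups are those of the labels, 1 pool of seedlings per library. Members were picked by the limits on their mock and CHX means. The members, gene lists and role classes were chosen with earlier results of these data known. The 22573 genes that reached 10 in 3 or more of the 6 EPFL6 and CHX plus EPFL6 libraries were fitted as log2(value + 1) with limma 3.58.1 (R 4.3.3; trend and robust variance), with no library of the rule in the fit, two-sided, with Benjamini-Hochberg adjustment over all of them and a threshold of 0.05. Fold changes are on that log2 scale and understate the change of low genes. On simulated data for this comparison with 22573 genes, all of 50 genes changed 12-fold and 88% of 50 changed 2-fold were recovered, with 4 false calls. Few genes changed in that simulation, whereas in the data 38.2% were called lower and 39.8% higher. Its false calls therefore do not measure error in the data. Alternatives were edgeR 4.0.16 and DESeq2 1.42.0 on the recovered reads, another pseudocount, no filter, scaling to library totals, all 12 libraries in a single fit, a replicate block and leaving out each library. On the recovered reads edgeR called 8541 genes lower and 9069 higher, and limma 8618 and 8974.

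Named members are up to 4 per role class with the highest EPFL6 mean, the 5 with the most and the 5 with the least negative fold change, and 3 on each side of the 1/12 limit; others were named after their values were seen. For the lists, 6 symbols that RefSeq gives to an unrelated gene were left unmatched. Near copies were found with blastn 2.17.0. Annotation, coordinates and sequences are from RefSeq TAIR10.1, whose locus tags matched 26514 of the 26702 genes.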

Additional observations from a re-analysis of the deposited data

Results flagged for a closer look

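AT4G20450, a leucine-rich repeat protein kinase gene, is singled out because its EPFL6 libraries lay above mock without CHX, and its CHX plus EPFL6 libraries below CHX, without overlap in either case. It had 262, 201 and 256 normalised reads with EPFL6, against 179, 147 and 158 in mock, a log2 ratio of 0.57. It had 8.27, 9.61 and 9.36 with CHX plus EPFL6, against 11.96, 13.2 and 14.3 with CHX, a log2 ratio of −0.49. The difference between these 2 effects was not tested, and 213 of the 17993 genes with a mock mean of at least 100 showed such opposite separations. At these levels under CHX the gap between the groups is a few reads per library.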

How the results depend on the processing

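All 155 members were lower and past the threshold in each of the 13 other fits, with a largest adjusted p of 0.0052, and 650 of 650 fold changes of the 50 named members kept their direction and call. The fit of all 12 libraries takes its variance also from the mock and CHX libraries, which chose the members, so it is not independent of that choice. Scaling to the same library total gave 14390 genes lower and 5064 higher, and 336 members by the rule, which hold all 155. A fold limit of 1/8 gave 273 members, while 1/16 gave 108, and a mock minimum of 50 or 200 gave 179 or 122. Leaving out 1 library at a time gave 8028 to 8422 genes lower, 8554 to 8786 higher, 155 to 155 members lower, 141 to 143 members at most 1/12 of EPFL6 and 144 to 176 members by the rule. With a pseudocount of 8 the members' median log2 fold change was −4.08, against −4.67 with 1. Over all fits other than library-total scaling, the fold of 68 members moved by over 1.5 times in at least 1 fit. Leaving out 1 library moved the fold of 7 members by over 1.5 times: AT1G43020, AT1G44970, AT1G52660, AT2G43670, AT3G06460, MSRB5 and CYP71A20. Another 2 settings were chosen after seeing the data. Without CHX replicate 3 the median log2 ratio of CHX plus EPFL6 to CHX over the members was −0.03 and not −0.26, and without mock replicate 2 that of EPFL6 to mock was 0.07.

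Deviations of same-numbered EPFL6 and CHX plus EPFL6 libraries from their group means correlated at −0.10, 0.11 and −0.12 across genes. Libraries with different numbers gave −0.14 to 0.20. These values gave no sign of pairing by number, but they cannot show whether libraries were handled in pairs. With the replicate number as a block, 8247 genes were lower and 8660 higher, and all 155 members were lower. The low counts under CHX limit how well the largest folds are known, and p-values measure the spread between pools of seedlings, with no batch given in the labels.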
